A study of Mus musculus with 44 samples.

Results

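An acute treadmill run was compared with the sedentary state in livers of 22 mice on a control diet, 12 of them exercised and 10 sedentary, out of 44 mice in the whole series. The members were the samples whose titles place them in these 2 groups. All were male C57BL/6N mice, 11 to 12 weeks old after 4 weeks on a purified diet whose vitamin E content was 149 IU/kg and which held 0 mg/kg of added vitamin C. Exercised control mice ran for 60 min at 13 m/min on an uphill slope of 14° and were killed right after the run. Sedentary mice rested in the home cage beside the treadmill and fasted for 60 min, so that the run is compared with rest in the cage. The other 22 mice, 12 exercised and 10 sedentary, were fed vitamin E at 2000 IU/kg together with 100 mg/kg of vitamin C, and entered here as a group of separate animals with the same run. Each liver was read on 1 Affymetrix Mouse Gene 2.1 ST array, a whole-transcript microarray, and the values are log2 expression, on which a difference of 1 is a 2-fold change. The hepatocyte marker albumin (Alb) was read in every control-diet mouse, at 11.5 to 11.8 in sedentary and 11.4 to 11.8 in exercised mice. In whole liver, a change in a cell type's share and a change in its RNA per cell cannot be told apart.

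During exertion the liver supplies the working muscle with glucose, first from glycogen and then by gluconeogenesis from lactate, glycerol and amino acids. Glucagon and adrenergic signals raise cyclic AMP in hepatocytes, which activates protein kinase A and the transcription factor CREB, while adrenal glucocorticoids act through the glucocorticoid receptor. Falling insulin releases the FOXO factors. Stress and growth factor kinases induce immediate early genes, short-lived transcription factors and the phosphatases and RNA decay proteins that end the signal.

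After the run, 111 probe sets were higher and 15 were lower than in sedentary mice, of 18522 tested (Benjamini-Hochberg adjusted p under 0.05 in limma, with the variance estimated from all 44 arrays). Fitted on the 22 arrays of this comparison alone, 61 were higher and 4 lower, and with no filter on low values 72 and 6. The 111 and 15 were 0.599% and 0.081% of the probe sets tested. The rises covered 88 genes through 90 probe sets with 1 gene symbol, and the falls 9 genes. A further 8 higher probe sets and 1 lower probe set carried several symbols, and 13 and 5 carried none. Some higher probe sets had identical values in every control-diet mouse, so that the 111 held 108 distinct sets of values. At an unadjusted p under 0.05, 1103 probe sets (5.96%) were higher and 637 (3.44%) lower. The median change over all probe sets was 0.016 and the median absolute change 0.113.

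Rises were mostly moderate. Their median was 0.69, from 0.30 to 2.65, with 90 of 111 at 0.5 or more, 30 at 1 or more and 3 at 2 or more. A log2 mean under 4 at rest was read for 40 of the 111, under 2.5 for 15, and of 8 or more for 10. Of the 126 called probe sets, 8 passed the filter on low values in exercised but not in sedentary control mice, the genes among them being Maff, Il1b, Tctex1d4 and Tmed2. Maff and Tmed2 passed it in no other group, so that their direction was fixed by the filter. The median size of the falls was 0.49, from 0.29 to 2.62. The lower count was 9 without sedentary control mouse 6, and 8 without sedentary control mouse 9 or exercised control mouse 6 or 7, while the higher count ran from 81 to 115 over the 22 mice left out in turn.

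**Figure D1:**
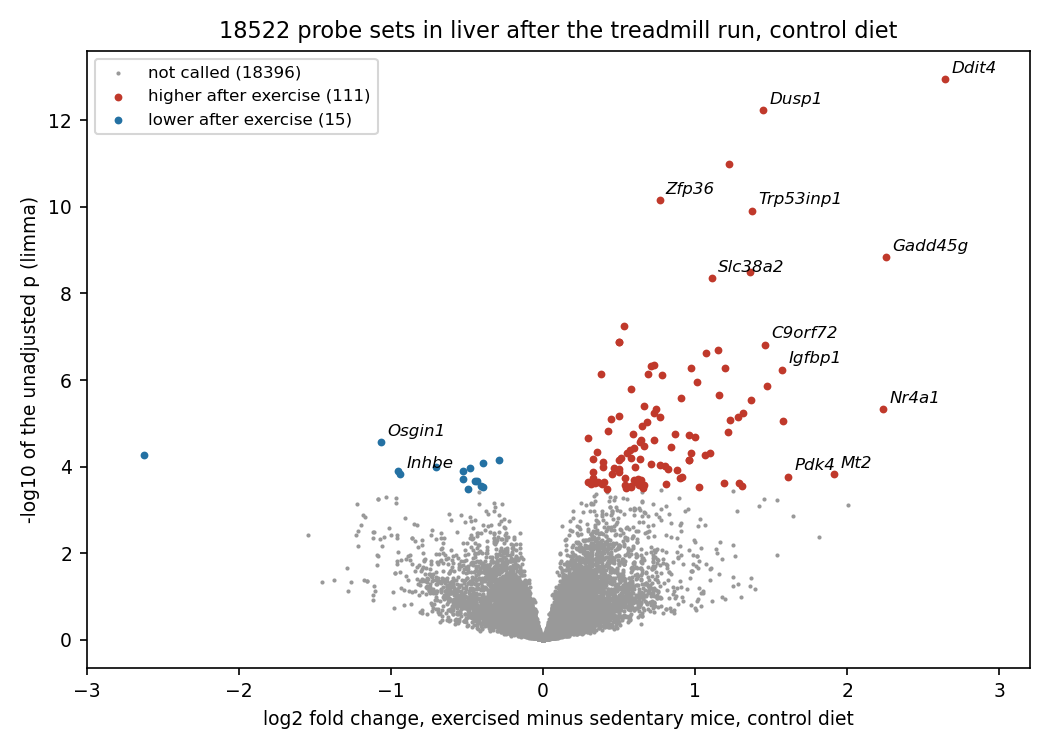
Each point is 1 of 18522 probe sets, with the log2 fold change (exercised minus sedentary mice, control diet) on the x axis and the −log10 of the unadjusted limma p on the y axis. The 111 higher probe sets in red reach a log2 fold change of 2.65 (Ddit4), and of the 15 lower ones in blue the lowest is at −2.62.

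The clearest separation between the groups was found for 7 genes. In each, all 12 exercised mice lay above the highest of the 10 sedentary mice, which was the case for 7 of all probe sets tested (0.0378%) and, in the other direction, for 0 (0%). Ddit4, an inhibitor of mTORC1 that stops protein synthesis under stress, had the lowest, median and highest values 2.19, 2.81 and 3.87 in sedentary and 4.85, 5.51 and 6.28 in exercised mice. The gap between the groups was thus wider than either group's SD of 0.54 and 0.45. The rise was 2.65 (standard error 0.25, adjusted p = 2.05e-09), or 6.255-fold.

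Dusp1, a phosphatase that switches off MAP kinases, ranged from 5.35 over a median of 5.64 to 6.02 at rest and from 6.15 over 7.20 to 7.78 after the run. It rose by 1.45 (standard error 0.14, adjusted p = 5.36e-09). Zfp36, which binds AU-rich mRNAs and leads them to decay, was even between animals. Its values were 8.54, 8.97 and 9.17 at rest and 9.48, 9.70 and 9.84 after the run, a rise of 0.77 (adjusted p = 3.18e-07) with an SD of only 0.12 in exercised mice. Trp53inp1, a p53-induced promoter of autophagy, went from 5.67, 6.30 and 6.55 to 6.88, 7.64 and 8.40, a rise of 1.38 (adjusted p = 4.51e-07).

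Gadd45g, a stress sensor that activates p38 and JNK kinases, was 4.18, 5.10 and 6.85 in sedentary and 7.17, 7.56 and 8.08 in exercised mice. The sedentary mice were spread widely (SD 0.79) and the exercised mice narrowly (SD 0.26), and the rise was 2.26 (standard error 0.29, adjusted p = 4.46e-06). C9orf72, part of a complex that acts in autophagy and lysosome function, ranged from 3.94 over 4.80 to 5.31 at rest and from 5.32 over 6.27 to 7.14 after the run, so that the groups only just failed to touch, and rose by 1.46 (adjusted p = 2.36e-04). Errfi1, an inhibitor of the EGF receptor, rose by no more than 0.30 (adjusted p = 0.00844), from 9.17, 9.55 and 9.65 to 9.69, 9.75 and 9.92. The change was small, and so was the spread, with SDs of 0.19 and 0.076.

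**Figure D2:**
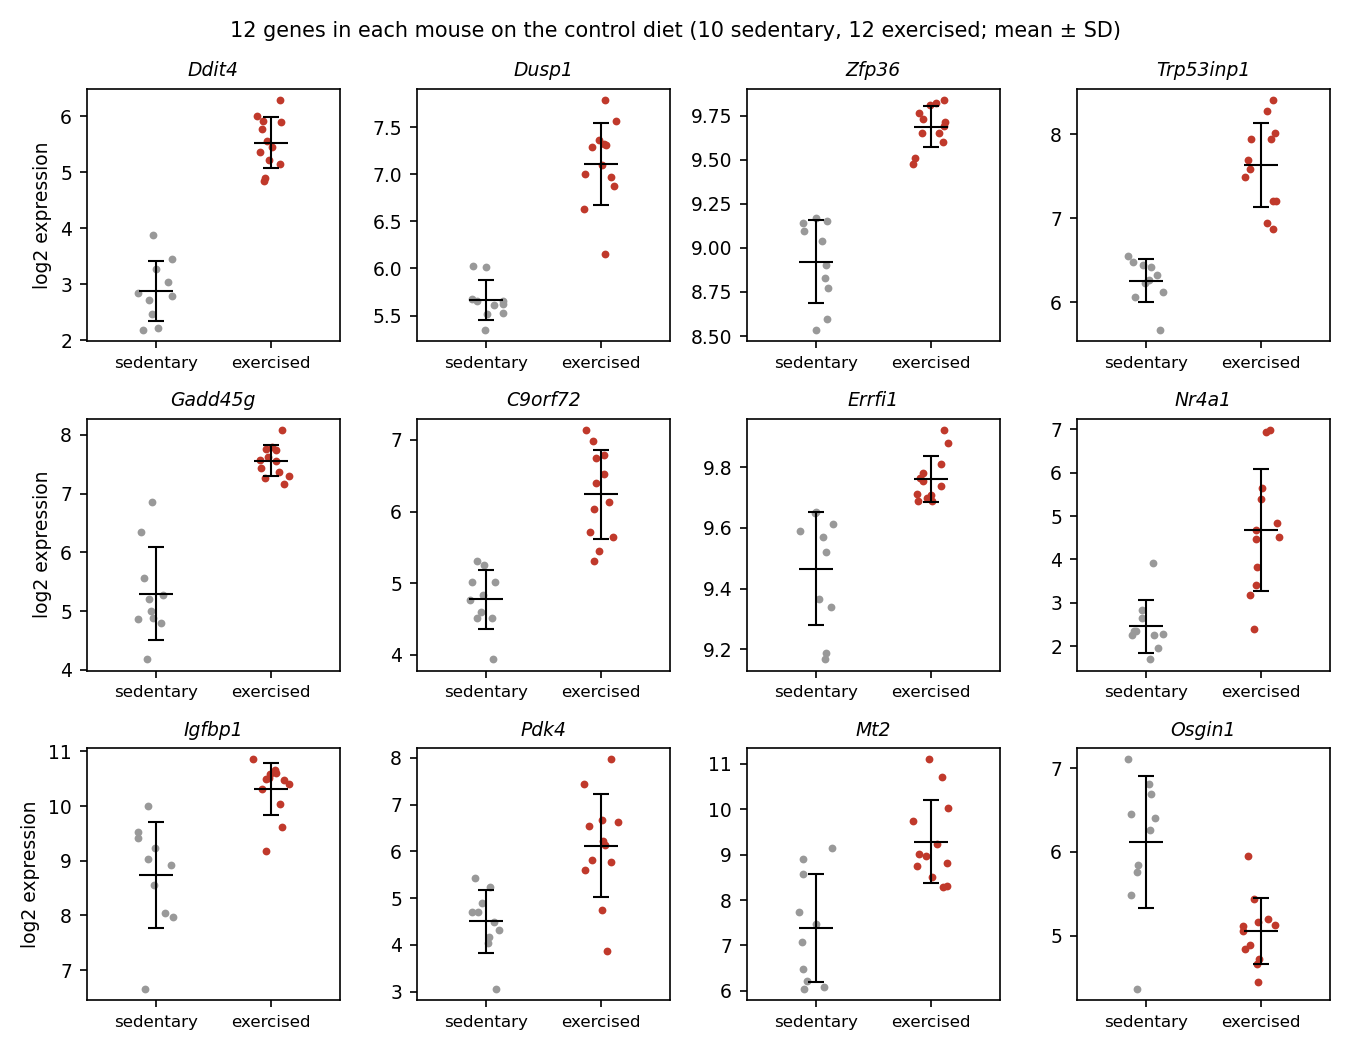
The log2 expression (y axis, own scale in each panel) of 12 genes is plotted for 10 sedentary (grey) and 12 exercised (red) control-diet mice, 1 point per mouse, with bars for the mean ± SD. The groups are apart in the 7 genes from Ddit4 to Errfi1 and overlap in Nr4a1, Igfbp1, Pdk4, Mt2 and Osgin1.

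In the other called probe sets the groups overlapped to some degree. A median of 9 of 12 exercised mice exceeded every sedentary mouse over the 111 higher probe sets, at least 10 did so in 38 of them and at least 6 in 96. Among 99 called probe sets with 1 symbol, 56 stayed called whichever of the 22 mice was left out, and 43 lost the call without at least 1 mouse.

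Of 17 listed targets of cyclic AMP and CREB, 14 were measured. All 14 had a positive fold change, 7 rose and 0 fell, and the median was 0.77. Over 10921 genes the median was 0.017, with 54.8% positive, 87 higher and 8 lower. Like the other lists here, this one was chosen with earlier results of these data known, so that its values are a description and no test. Sik1, a kinase that in turn restrains the CREB coactivators, was 4.56, 5.48 and 6.66 at rest and 5.80, 7.12 and 7.75 after the run and rose by 1.47 (adjusted p = 0.00106). The lowest exercised mice lay within the sedentary range. Rgs2, which dampens G protein signalling, rose in both of its probe sets, by 1.15 (adjusted p = 0.00155) and 1.23 (adjusted p = 0.00413). Irs2, the insulin receptor substrate through which hepatocytes regain insulin sensitivity, ranged from 4.77 over 5.83 to 6.87 at rest and from 5.52 over 7.22 to 7.78 after the run. It rose by 1.28 (adjusted p = 0.0037), with 9 of 12 exercised mice above all sedentary mice.

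The orphan nuclear receptor Nr4a1 had a large and uneven rise of 2.24 (standard error 0.43, adjusted p = 0.00285). Values were 1.70, 2.32 and 3.91 at rest and 2.39, 4.59 and 6.99 after the run, so that the lowest exercised mouse was close to the sedentary median. Nr4a2 (0.91, adjusted p = 0.201) and Nr4a3 (0.69, adjusted p = 0.402) of the same family did not pass. Ppargc1a, the coactivator of the fasting and gluconeogenic programme, was 4.55, 5.55 and 5.93 at rest and 5.57, 6.34 and 7.10 after the run, a rise of 0.81 (adjusted p = 0.0418). That call was lost without any 1 of 13 mice (sedentary mice 3, 4, 5, 7, 8 and 9 and exercised mice 1, 4, 6, 7, 9, 10 and 12), at adjusted p from 0.0551 to 0.111. The remaining members below the threshold were Crem, Nfil3, Pde4b, Crtc2 and Creb3l3, at 0.07 to 0.74.

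CREB binds the palindromic cAMP response element TGACGTCA, which reads the same on both strands. It was looked for in RefSeq promoters of GRCm38.p6, from 250 bases before to 50 bases after each annotated start. Of the 88 genes that rose, 73 had such a promoter and 11 of these (15.1%) held the element, against 312 of 8687 tested genes with a promoter (3.59%). For comparison, the AP-1 site TGAGTCA was present in 4 (5.48% against 4.51%), the E-box CACGTG in 13 (17.8% against 11.8%) and the FOXO site TTGTTTAC in 1 (1.37% against 1.01%). Both strands were read, and none of these 4 motifs contains another. Of the 8 genes with a promoter among the 9 that fell, 1 held the cAMP response element (Gemin6). A match is a description of the letters and was not tested. The 11 promoter stretches are shown because they carry this count. They are given 5′ to 3′ on the gene's strand with up to 30 bases on each side, end at the base before the start, and have the element in capitals.
Dusp1 (chr17:26508578-26508645, minus strand, element from -143): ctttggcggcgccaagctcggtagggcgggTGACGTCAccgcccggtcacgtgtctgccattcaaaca
Btg2 (chr1:134079284-134079351, minus strand, from -166): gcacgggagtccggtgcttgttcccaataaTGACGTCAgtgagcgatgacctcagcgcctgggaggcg
Slc25a25 (chr2:32424179-32424246, minus strand, from -150): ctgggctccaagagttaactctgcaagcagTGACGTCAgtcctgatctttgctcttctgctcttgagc
Retreg1 (chr15:25843120-25843187, plus strand, from -148): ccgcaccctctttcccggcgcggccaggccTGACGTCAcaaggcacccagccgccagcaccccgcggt
Ell2 (chr13:75707256-75707323, plus strand, from -198): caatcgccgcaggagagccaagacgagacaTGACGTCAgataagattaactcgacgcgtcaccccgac
Errfi1 (chr4:150854989-150855056, plus strand, from -51): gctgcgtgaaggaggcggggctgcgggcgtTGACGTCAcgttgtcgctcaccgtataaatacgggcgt
Inpp4a (chr1:37299734-37299801, plus strand, from -74): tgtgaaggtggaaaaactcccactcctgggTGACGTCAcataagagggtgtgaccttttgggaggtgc
Wsb1 (chr11:79254696-79254763, minus strand, from -38): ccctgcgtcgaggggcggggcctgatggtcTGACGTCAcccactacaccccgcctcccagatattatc
Maff (chr15:79347461-79347519, plus strand, from -29): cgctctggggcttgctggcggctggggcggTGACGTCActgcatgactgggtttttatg
Ccnl1 (chr3:65958250-65958297, minus strand, from -18): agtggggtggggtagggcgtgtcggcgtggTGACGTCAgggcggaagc
Ppp1r15a (chr7:45526269-45526310, minus strand, from -12): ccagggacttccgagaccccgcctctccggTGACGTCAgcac
Of these 11 genes, only Dusp1 was on the list of cAMP targets. The others were an antiproliferative factor (Btg2), a carrier of ATP and magnesium in mitochondria (Slc25a25), a receptor for autophagy of the endoplasmic reticulum (Retreg1), a transcription elongation factor (Ell2), an inositol phosphatase (Inpp4a), a ubiquitin ligase subunit (Wsb1), a small Maf factor (Maff, which passed the filter on low values only in the exercised control group), a cyclin of RNA processing (Ccnl1) and the phosphatase subunit that restores translation after stress (Ppp1r15a), beside Errfi1. Btg2 rose by 1.58 (adjusted p = 0.00414), Wsb1 by 1.10 (adjusted p = 0.0153) and Slc25a25 by 0.97 (adjusted p = 5.44e-04).

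Glucocorticoid receptor targets rose in 11 of 26 measured genes and fell in 0, with 22 of 26 positive and a median of 0.30. The 11 were Ddit4, Dusp1, Zfp36, Igfbp1, Tat, Sgk1, Cebpd, Per1, Errfi1, Mt2 and Pdk4, of which Per1 and Dusp1 are also on the cyclic AMP list. Igfbp1, a liver-secreted protein that binds insulin-like growth factors, was 6.66, 8.98 and 10.01 at rest and 9.18, 10.49 and 10.85 after the run, a rise of 1.57 (standard error 0.27, adjusted p = 5.59e-04). Its SD was 0.97 in sedentary and 0.48 in exercised mice. Tat, the tyrosine aminotransferase classically induced by glucocorticoids in hepatocytes, went from 10.48, 10.83 and 11.03 to 10.90, 11.19 and 11.47, a rise of 0.38 (adjusted p = 6.38e-04).

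The metal-binding protein Mt2 was 6.05, 7.28 and 9.15 at rest and 8.29, 8.98 and 11.10 after the run and rose by 1.91 (standard error 0.46, adjusted p = 0.0306). Its 3 highest sedentary mice lay among the exercised ones. Its relative Mt1 just missed the threshold (1.25, adjusted p = 0.0539). The Mt2 call was lost without any 1 of 8 mice (sedentary mice 5, 6, 7, 8 and 10 and exercised mice 3, 4 and 6), at adjusted p from 0.0503 to 0.0751. The kinase Sgk1 rose by 0.91 (adjusted p = 0.00178) and the factor Cebpd by 0.66 (adjusted p = 0.00259). Members that glucocorticoids induce in many tissues but that did not pass were Tsc22d3 (0.30, adjusted p = 0.50), Fkbp5 (0.23, adjusted p = 0.725) and Klf9 (0.27, adjusted p = 0.521). Arrdc3 was at −0.97 (adjusted p = 0.0702).

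Immediate early factors rose in 5 of 17 measured genes and fell in 0, with a median of 0.44. At an unadjusted p under 0.05, 8 were higher and 1 lower, where 6.65% of all genes were higher and 3.28% lower. Jun, the central AP-1 subunit, went from 4.01, 4.66 and 5.24 to 4.89, 5.72 and 6.73 (1.07, adjusted p = 3.14e-04), with 11 of 12 exercised mice above all sedentary ones. Egr1, a zinc finger factor, rose by 1.06 (adjusted p = 0.0161), Csrnp1 by 1.00 (adjusted p = 0.00826), Fosl2 by 0.97 (adjusted p = 0.0153) and Maff, whose direction the filter fixed, by 0.96 (adjusted p = 0.00737). The rise was not shared by the whole list. Ier2 (−0.02), Ier5 (−0.04), Ier3 (0.08) and Klf6 (0.04) were near 0 and Klf10 was at −0.51 (adjusted p = 0.355). Atf3 (0.84, adjusted p = 0.16) and Junb (0.70, adjusted p = 0.196) did not pass. Among 13 Krüppel-like factors 1 was called, the repressor Klf3, which rose by 0.71 (adjusted p = 5.44e-04). Of the 13, 11 were positive, with a median of 0.20, and 6 were higher and 1 lower at an unadjusted p under 0.05. Of 16 MAP kinase phosphatases and mRNA decay factors, Dusp1, Zfp36 and Errfi1 rose and 15 were positive, with a median of 0.31.

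Growth arrest and DNA damage response genes had a median of 0.35 over 13 measured members, and Gadd45g and Btg2 rose. At an unadjusted p under 0.05, 9 of the 13 were higher and 0 lower. Btg2 was 3.31, 5.10 and 6.26 at rest and 4.84, 6.63 and 7.58 after the run, with 8 of 12 exercised mice above all sedentary mice. The cell cycle inhibitor Cdkn1a had a larger difference, 2.01, that did not pass (standard error 0.55, adjusted p = 0.09), since its sedentary mice ran from 3.86 over 5.44 to 8.52 and its exercised mice from 5.08 over 7.99 to 9.14. Plk3 was at 1.46 (adjusted p = 0.074). In the list of mTORC1 restraint, sestrins and tribbles, Ddit4 and the pseudokinase Trib1 (0.60, adjusted p = 0.0128) rose, and 6 of 11 genes were positive. Of 25 genes of the unfolded protein and integrated stress response, Ppp1r15a rose, by 0.65 (adjusted p = 0.00518), and the median was 0.10. The list of heat shock proteins had 0 of 16 members called, 1 higher at an unadjusted p under 0.05, and a median of 0.034. Hspa2, a heat shock gene not on that list, rose by 0.58 (adjusted p = 0.0435). Its call was lost without any 1 of 15 mice, at adjusted p of up to 0.12.

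Few transcripts for fuel handling were called. Got1, the cytosolic aspartate aminotransferase, ranged from 9.32 over 10.05 to 10.36 at rest and from 10.16 over 10.80 to 10.95 after the run, and rose by 0.69 (adjusted p = 6.38e-04). Together with Tat it made up the calls among 22 genes of amino acid catabolism (median 0.079) and among 17 genes of gluconeogenesis (median 0.082). At an unadjusted p under 0.05, 6 of the 22 were higher and 1 lower, and 4 of the 17 higher and 0 lower, where 6.65% of all genes were higher and 3.28% lower. The gluconeogenic enzyme Pck1 was at 0.23 (adjusted p = 0.179) and glucose-6-phosphatase G6pc at 0.51 (adjusted p = 0.366). Without exercised control mice 3 and 6, which are described below, G6pc was at 0.71 and passed (adjusted p = 0.015), and 17 of the 17 gluconeogenesis genes were positive, against 12 with all mice.

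Slc38a2, a sodium-coupled importer of neutral amino acids, was 7.73, 8.28 and 8.98 at rest and 8.87, 9.46 and 9.82 after the run and rose by 1.11 (standard error 0.15, adjusted p = 1.02e-05). The mitochondrial ornithine carrier Slc25a15 rose by 0.45 (adjusted p = 0.00388). The list of 12 amino acid transporters also held Slc25a25, which carries ATP and not amino acids, and its median was 0.32. Among the carriers outside the lists, the mitochondrial glutamate carrier Slc25a22 (0.60, adjusted p = 0.0243), the NAD carrier Slc25a51 (0.42, adjusted p = 0.048), the lysosomal cystine exporter Ctns (0.39, adjusted p = 0.0204), Slc35g1 (0.40, adjusted p = 0.0243) and Slc36a4, taken up below, rose. The Ctns call was lost without sedentary mouse 3 or 6 (adjusted p = 0.0597 and 0.0606), and that of Slc35g1 without sedentary mouse 3, 5 or 8 (0.0514 to 0.0668). In the citric acid cycle, fumarase Fh1 rose by 0.33 (adjusted p = 0.0189, and 0.0529 without sedentary mouse 5). The Slc25a22 call was lost without sedentary mouse 5, 6 or 9 or exercised mouse 7 (adjusted p from 0.0511 to 0.0581), and the Slc25a51 call without any 1 of 16 mice, at up to 0.138.

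Pdk4, the kinase that blocks pyruvate oxidation, had values of 3.06, 4.60 and 5.44 at rest and 3.87, 6.18 and 7.97 after the run, a rise of 1.61 (standard error 0.39, adjusted p = 0.0345). While 10 of 12 exercised mice exceeded all sedentary mice, mouse 11 (3.87) lay below the sedentary median. The call was lost without any 1 of 10 mice (sedentary mice 3, 5, 7 and 9 and exercised mice 4, 6, 7, 9, 10 and 12), at adjusted p from 0.0527 to 0.0872. Pdk4 was the only call among 29 genes of fatty acid oxidation and ketogenesis (median 0.015) and among 12 of the pyruvate dehydrogenase complex and its regulators (median −0.032, and 0.088 without exercised mice 3 and 6). The carnitine transporter Slc22a5 (0.50, adjusted p = 0.513), Angptl4 (0.22, adjusted p = 0.632) and Cpt2 (0.13, adjusted p = 0.554) did not pass on the array. Slc22a5 was higher at an unadjusted p under 0.05 with a median fold above 1.2. By quantitative PCR the authors reported that exercise raised all of these genes.

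Ppp1r3g, a subunit that brings protein phosphatase 1 to glycogen, ranged from 2.82 over 3.26 to 4.46 at rest and from 3.29 over 5.00 to 5.75 after the run. It rose by 1.31 (adjusted p = 0.00329), alone among 14 genes of glycogen metabolism. The list's median was −0.026 with 5 of 14 positive, and 0.057 with 11 of 14 positive without exercised mice 3 and 6. Pfkfb2, which sets the level of fructose 2,6-bisphosphate, rose by 0.40 (adjusted p = 0.0408, lost without any 1 of 13 mice at up to 0.109). In insulin and IGF signalling Irs2 and Igfbp1 rose out of 18 genes. Of 14 lipid droplet proteins and lipases Plin4 rose, by 0.77 (adjusted p = 0.0236, and 0.0642 without sedentary mouse 9).

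Synthesis genes did not pass the threshold. Among 24 genes of fatty acid and triglyceride synthesis 16 were negative, with a median of −0.097, and 5 were lower and 1 higher at an unadjusted p under 0.05. Fatty acid synthase (Fasn) was 7.33, 8.27 and 9.62 at rest and 5.34, 7.72 and 9.16 after the run (−0.80, adjusted p = 0.508), Acaca was at −0.46 (adjusted p = 0.366) and Acacb at −0.035 (adjusted p = 0.975). Fasn was lower at an unadjusted p under 0.05 with a median fold above 1.2. The authors reported Fasn and Acacb as lowered by exercise on this diet. Cholesterol synthesis (20 genes, median −0.084), bile acid genes (19, median −0.062), apolipoproteins (17, median 0.007) and respiratory chain subunits (24, median −0.035) had 0 calls. Without exercised mice 3 and 6 the sign turned in bile acid genes (0.037, 13 of 19 positive against 5) and respiratory chain subunits (0.024, 17 of 24 positive against 5), and the fatty acid and triglyceride list was at −0.020. With 0 calls there were also interferon-stimulated genes (25, median 0.044, and −0.055 without mice 3 and 6), actin and SRF targets (23, median 0.14) and the angiogenic and hypoxia response (13, median 0.15). At an unadjusted p under 0.05, apolipoproteins had 3 lower members, actin and SRF targets 3 higher and 1 lower, and the hypoxia response 4 higher, whereas the cholesterol, bile acid, respiratory chain and interferon lists had 0. Of 16 clock genes Per1 rose, by 0.59 (adjusted p = 0.00717), and the repressor Nr1d1 was at −0.96 (adjusted p = 0.0836). In 21 xenobiotic metabolism genes the dioxin receptor Ahr rose (0.61, adjusted p = 0.0401, lost without any 1 of 13 mice at up to 0.101), with a median of 0.051.

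**Figure D3:**
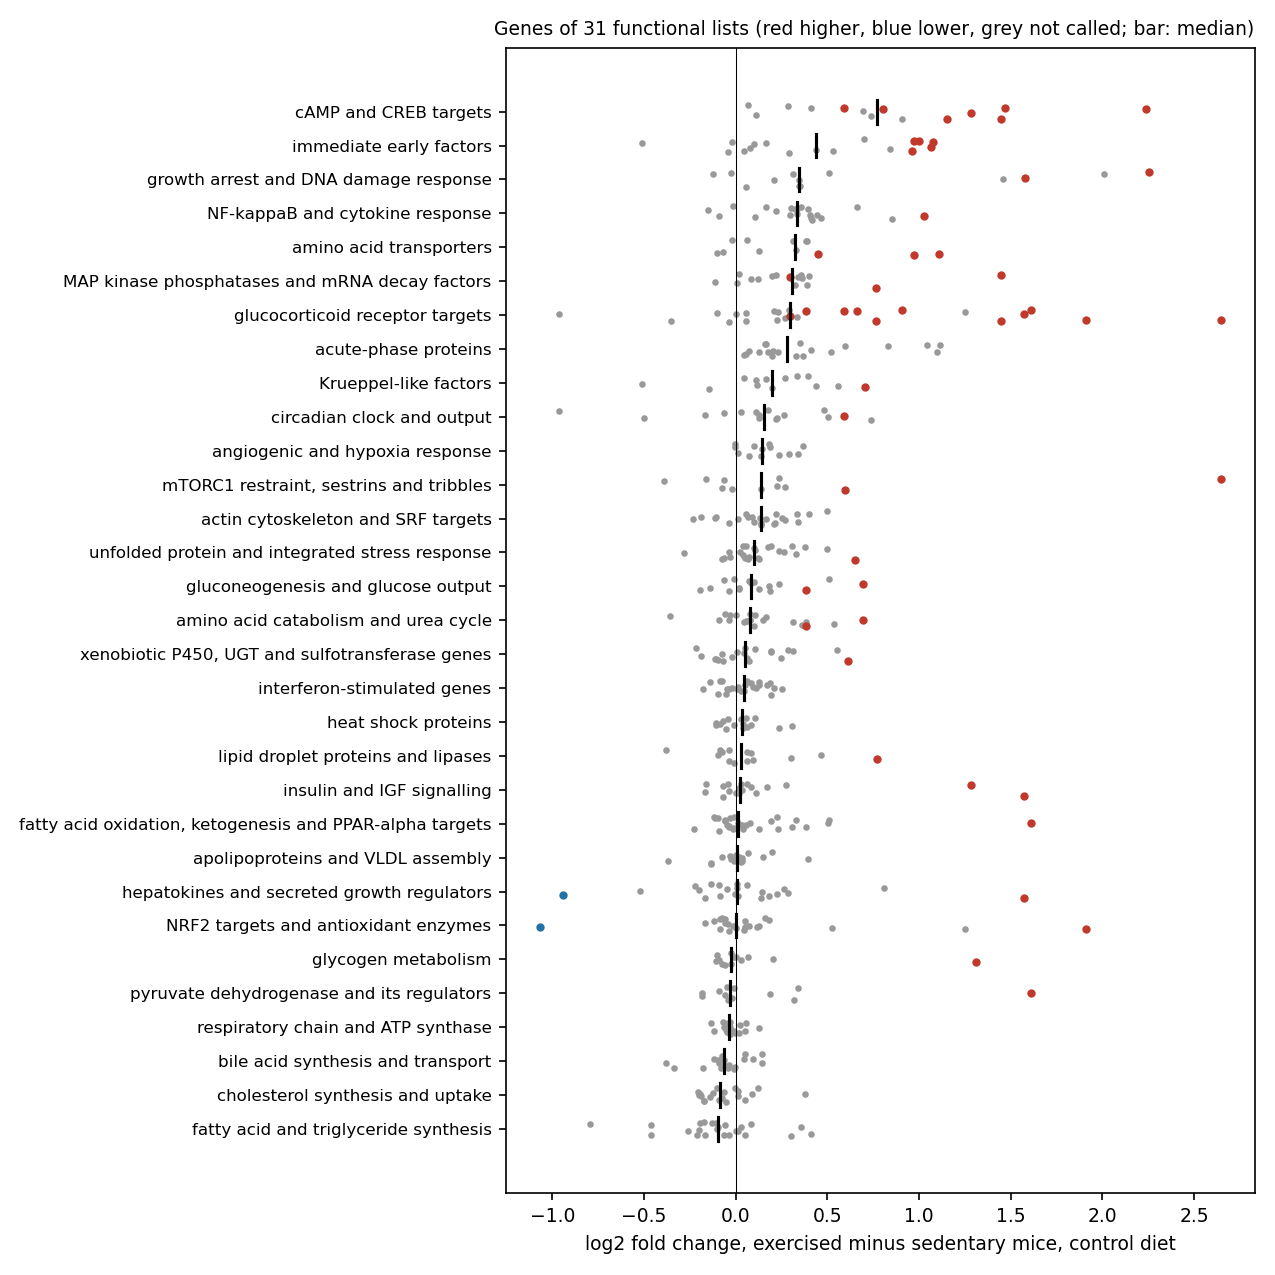
The log2 fold change (x axis, exercised minus sedentary mice, control diet) of every measured gene is plotted for 31 functional lists, with called genes in red (higher) or blue (lower), others in grey and a bar at the median. The cyclic AMP list has the highest median, 0.77, and in 21 of 31 lists at least 1 gene was called.

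Of the 88 genes that rose, 34 were on one of these lists and 54 on none. The most marked of the 54 by p, apart from Trp53inp1 and C9orf72, was Rasgef1b, a Ras exchange factor, at 4.17, 4.78 and 5.19 in sedentary and 5.16, 6.17 and 6.86 in exercised mice (1.36, adjusted p = 8.56e-06). The kinase Pim3 rose by 0.73 (adjusted p = 5.44e-04), Retreg1 by 0.78 (adjusted p = 6.38e-04), Rusc2 by 0.58 (adjusted p = 0.0012) and Tiparp, an ADP-ribosyltransferase, by 1.01 (adjusted p = 8.77e-04). The other Tiparp probe set was at 0.47 (adjusted p = 0.261). These genes share no single textbook pathway. Pptc7, a mitochondrial phosphatase, rose by 0.77 (adjusted p = 0.0037), Noct by 0.73 (adjusted p = 0.00898), Ifrd1 by 0.87 (adjusted p = 0.00717) and Fam222a by 1.21 (adjusted p = 0.00691). Atp1b1, a subunit of the sodium pump, rose by 0.51 (adjusted p = 0.0184) and Tnfrsf1b, a receptor for tumour necrosis factor, by 0.71 (adjusted p = 0.0222).

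Some calls do not identify their gene with certainty. Gm13363 rose by 0.53 (adjusted p = 1.16e-04), but other called probe sets carry the symbols Gm13363 and Ptp4a1 together, and the probe set of Ptp4a1 alone rose by 0.55 (adjusted p = 0.0468). Tmed2 was called from a probe set with a sedentary mean of 1.22 (0.90, adjusted p = 0.0365), whereas its other probe set, with a sedentary mean of 7.64, differed by −0.029 (adjusted p = 0.946). The Slc36a4 call (0.54, adjusted p = 0.042) likewise came without its other probe set (−0.023, adjusted p = 0.982). The call was lost without any 1 of 16 mice for Ptp4a1, 7 for Tmed2 and 14 for Slc36a4, at adjusted p of up to 0.106, 0.086 and 0.117.

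Probe sets of the miRNA genes Mir344d-2 and Mir680-2 rose. Mir344d-2 was 2.95, 3.46 and 4.64 at rest and 3.97, 4.71 and 5.37 after the run (1.15, adjusted p = 2.93e-04), and Mir680-2 was 4.84, 5.32 and 6.17 and 5.46, 6.14 and 7.71 (0.91, adjusted p = 0.0345). Whether these signals came from the mature miRNAs is not known from the array. Their mature sequences in RefSeq (GRCm38.p6), shown to identify them with the seed (bases 2 to 8) in capitals, have 3 different seeds.
mmu-miR-344d-3p (chr7:61685279-61685300, minus strand): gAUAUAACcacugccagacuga
mmu-miR-344d-2-5p (chr7:61685318-61685341, minus strand): aGUCUGGUugcuggcuauauucca
mmu-miR-680 (chrX:144297790-144297810, plus strand): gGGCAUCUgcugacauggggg
The Mir680-2 call was lost without any 1 of 9 mice (sedentary mice 3, 4, 7, 8 and 9 and exercised mice 3, 6, 7 and 9), at adjusted p from 0.0599 to 0.0809.

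Among the 9 genes that fell, Osgin1, an oxidative stress-induced regulator of growth, changed most and was the one that stayed called whichever mouse was left out. It was 4.37, 6.33 and 7.10 at rest and 4.44, 5.09 and 5.95 after the run, a fall of 1.07 on the log2 scale (log2 fold change −1.07, standard error 0.23, adjusted p = 0.00972). The groups overlapped, and sedentary mouse 3 (4.37) lay below all exercised mice. In the list of 23 NRF2 targets and antioxidant enzymes, Osgin1 fell, Mt2 rose and the median was 0.0042. Inhbe, which encodes the subunit of the hepatokine activin E, went from 6.09, 6.39 and 6.98 to 4.26, 5.63 and 6.23 (−0.94, adjusted p = 0.0307), with 11 of 12 exercised mice below all sedentary mice. It fell and Igfbp1 rose among 22 hepatokines and secreted growth regulators (median 0.0064). Its call was lost without any 1 of 8 mice (sedentary mice 1, 2, 6 and 8 and exercised mice 7, 8, 9 and 12), at adjusted p from 0.052 to 0.0687.

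The other falls were between −0.39 and −0.53. The genes were B4galt5, which makes lactosylceramide (−0.53), Gemin6 of the SMN complex (−0.53), Rnf145, a ubiquitin ligase of the endoplasmic reticulum (−0.49), the transcobalamin receptor Cd320 (−0.48), the zinc finger gene Zfp444 (−0.45), Ormdl1, which restrains sphingolipid synthesis (−0.41), and the small nucleolar RNA Snord104 (−0.39), at adjusted p from 0.0252 (Cd320) to 0.0478 (Rnf145). The Cd320 call was lost without sedentary mouse 6 or 9 (adjusted p = 0.0628 and 0.0743), that of Gemin6 without sedentary mouse 3, 7 or 10 or exercised mouse 3 or 6 (0.0512 to 0.077), and those of the other 5 each without any 1 of 13 to 16 mice, at up to 0.138. The largest fall, −2.62 (adjusted p = 0.0161), belonged to a probe set with no symbol. It ranged from 3.49 over 4.99 to 5.69 at rest and from 0.20 over 2.09 to 4.65 after the run.

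Exercised control mice 3 and 6 stood apart in inflammatory genes. The mean log2 level of 20 acute-phase genes was 10.90 in mouse 3 and 10.63 in mouse 6, against 8.61 to 9.31 in the other exercised mice and 8.46 to 9.25 in sedentary mice. Saa3 reached 11.70 in mouse 3 and 11.39 in mouse 6, against at most 7.67 elsewhere in these groups. All 20 acute-phase genes had a positive fold change and 0 passed, 5 being higher at an unadjusted p under 0.05. Their median was 0.28, and 0.038 without mice 3 and 6. Of 11 listed neutrophil markers only 3 were measured (S100a8, S100a9 and Mmp9). Their mean was 4.98 and 5.43 in mice 3 and 6, against 1.43 to 2.64 in the other exercised mice and 1.40 to 3.30 in sedentary mice. That of 14 Kupffer cell and macrophage markers was 6.32 in mouse 6, above all others, and 5.02 in mouse 3, within the 3.85 to 5.33 of sedentary mice.

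All 14 Kupffer cell markers were positive, with 0 called, 1 higher at an unadjusted p under 0.05 and a median of 0.33, or 0.099 without these mice. The defining markers Clec4f (5.46 at rest) and Timd4 differed by 0.24 (adjusted p = 0.821) and 0.43 (adjusted p = 0.754). Of 21 NF-kappaB and cytokine response genes 18 were positive, and 6 were higher and 0 lower at an unadjusted p under 0.05. Their median was 0.34, or 0.13 with 15 positive without mice 3 and 6. Among them the cytokine Il1b alone was called, from 1.11, 1.92 and 2.36 to 2.14, 2.86 and 3.45 (1.03, adjusted p = 0.0452). It was at 0.96 (adjusted p = 0.126) without mice 3 and 6. Its call was also lost without any 1 of 17 mice (sedentary mice 1 to 8 and 10 and exercised mice 1 to 7 and 9), at adjusted p from 0.0516 to 0.116. Outside this list, the chemokine receptor Cxcr4 rose by 0.88 (adjusted p = 0.0265, and 0.058 without mice 3 and 6). The Cxcr4 call was lost without any 1 of 5 mice, at up to 0.0656. Probe sets that carry Ccl19 together with other symbols rose by 0.63 to 0.73 (adjusted p from 0.00329 to 0.0415), and do not identify their gene. Hepatocyte markers had a median of −0.0032 over 9 genes, sinusoidal endothelial markers 0.19 over 9 and stellate cell markers −0.041 over 9, with 0 called in each. Without mice 3 and 6 these medians were 0.0006, 0.17 and 0.12, the stellate list having 7 of 9 positive against 4, and the neutrophil median went from 0.17 to −0.42. At an unadjusted p under 0.05, 2 endothelial and 1 stellate marker were higher and 0 hepatocyte markers. None of the 7 erythroid markers passed the filter, and the T and NK cell, B cell, cholangiocyte and acinar lists had 1 to 3 measured members each, 0 of them called or past an unadjusted p of 0.05. The part of cell type shares in the response was not tested.

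Without mice 3 and 6, 88 probe sets were higher and 10 lower, 73 and 6 of them among the original calls. The cyclic AMP list kept a median of 0.76 with 6 members called, and the glucocorticoid list a median of 0.35 with 9 called. Of the 99 called probe sets with 1 symbol, 31 no longer passed. Among them were Pdk4 (1.48, adjusted p = 0.08), Mt2 (1.59, adjusted p = 0.129), Ppargc1a (0.81, adjusted p = 0.0548), Egr1 (0.97, adjusted p = 0.0552), Plin4 (0.74, adjusted p = 0.0581), Tmed2 (0.92, adjusted p = 0.0558) and Ahr (0.56, adjusted p = 0.12). The falls of Ormdl1, Snord104, Rnf145, Gemin6 and Zfp444 were also lost, at adjusted p from 0.0586 (Zfp444) to 0.155 (Ormdl1).

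**Figure D4:**
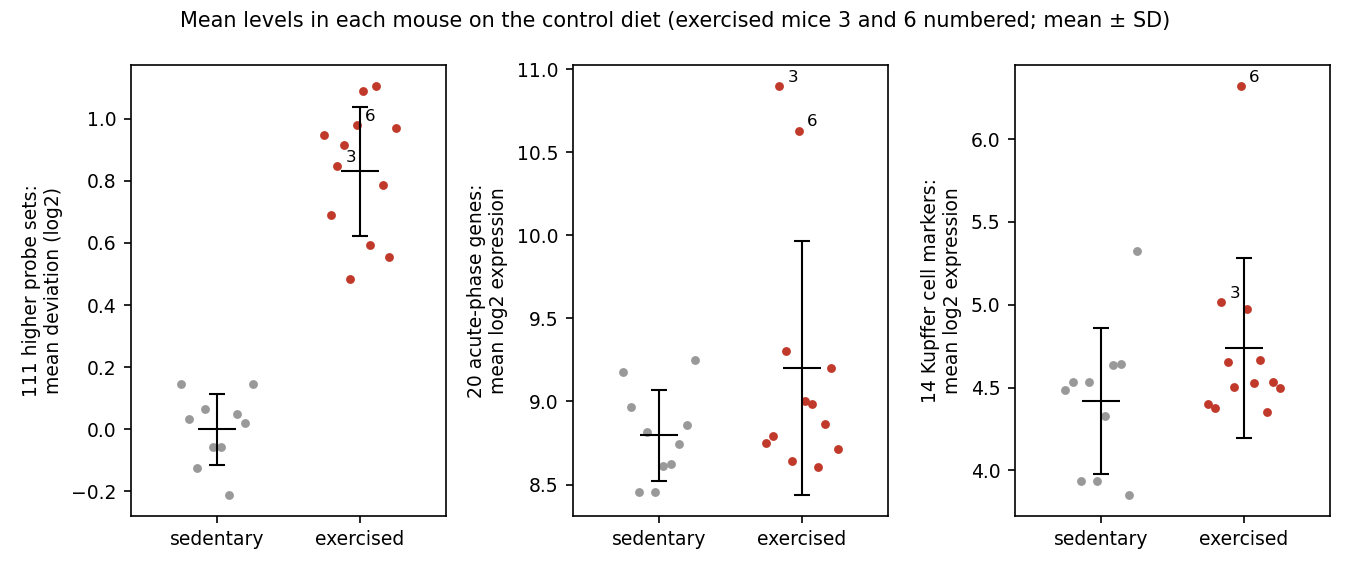
Each point is 1 control-diet mouse, with bars for the mean ± SD, and exercised mice 3 and 6 are numbered. The left panel shows the mean deviation (log2) of the 111 higher probe sets from their sedentary mean, in which mice 3 and 6 lie inside the exercised group. The other panels show the mean log2 expression of 20 acute-phase genes, in which both are above all other mice, and of 14 Kupffer cell markers, in which mouse 6 is.

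The mice differed in the size of the response. Averaged over the 111 higher probe sets, the deviation from the sedentary mean was −0.21 to 0.15 in sedentary mice and 0.48 to 1.11 in exercised mice, a gap that the choice of these probe sets fixes. Exercised mouse 5 was lowest (0.48), followed by mice 11 (0.56) and 8 (0.59), and mice 9 (1.11) and 7 (1.09) were highest. Mouse 5 exceeded every sedentary mouse in 42 of the 111 probe sets and mouse 7 in 94. For the 15 lower probe sets the mean deviation in exercised mice was −0.94 (mouse 6) to −0.54 (mouse 3).

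Spread between mice was uneven across genes. The called genes with the highest SD in exercised mice were Nr4a1 (1.41, against 0.60 at rest), Pdk4 (1.10 against 0.67), Btg2 (0.95 against 0.85), Mt2 (0.92 against 1.19), Tmed2 (0.78 against 0.40), Ppp1r3g (0.76 against 0.48), Rgs2 in 1 probe set (0.72 against 0.33), Fam222a (0.70 against 0.49), Irs2 (0.70 against 0.65) and 1700017B05Rik (0.65 against 0.85). Those with the lowest were Errfi1 (0.076 against 0.19), Aff4 (0.12 against 0.20), Zfp36 (0.12 against 0.23), Tat (0.13 against 0.19) and Kdm7a (0.15 against 0.15). Both sets were picked by the exercised SD, so that a larger SD than at rest in the first and a smaller one in the last is favoured by the choice.

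Over the higher probe sets the SD was larger in exercised mice in 70 of 111 and the median SD was 0.33 at rest and 0.37 after the run. Over all probe sets it was larger in 50.8%, with medians of 0.32 and 0.33. Tested on absolute deviations from the group median in limma, the spread changed in 0 probe sets at an adjusted p under 0.05 (smallest 0.776) and in 691 at an unadjusted p under 0.05, 290 of them wider and 401 narrower after the run. On simulated data this test recovered almost no change in spread after adjustment, so that little can be read from the 0. The smallest p among genes belonged to Bmp4 (SD 0.19 at rest, 0.59 after the run), Mir378b (0.10, 0.55), Stamos (0.63, 0.20), 2700049A03Rik (0.60, 0.30) and D230025D16Rik (0.38, 0.16), all at adjusted p of 0.776 or above.

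The animal numbers in the labels fall into a 24 and a 27 series, whose meaning the labels do not give. Each held 6 exercised control mice, with 6 sedentary mice in the 24 series and 4 in the 27 series. Within the series, all 111 higher probe sets were positive in both (median 0.71 and 0.73) and all 15 lower ones negative in both (median −0.55 and −0.43), as a description, since these same mice had chosen them. The interaction of exercise and series was called in 0 probe sets (smallest adjusted p = 0.797) and reached an unadjusted p under 0.05 in 876, of which 5 were among the 111. The genes with the smallest p were Mettl8, Gm5936, Tigd5, Yipf3 and Mir1951, each with an adjusted p of 0.982. With 4 to 6 mice per group in each series, the 0 calls do not show equal responses in both series.

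The vitamin E-supplemented mice gave the same comparison in other animals, and the contrasts share no mice. There 37 probe sets (0.2%) were higher and 6 (0.0324%) lower after the run at an adjusted p under 0.05, and 502 (2.71%) and 639 (3.45%) at an unadjusted p. Of the 111 probe sets higher on the control diet, 103 had the same direction, 77 of them at an unadjusted and 29 at an adjusted p under 0.05, where 53.5% of all probe sets had the same direction on both diets. Of the 15 lower ones, 11 had the same direction, 4 at an unadjusted and 1 at an adjusted p under 0.05. The calls shared by both diets, 30 in all, were 23.8% of those on the control diet and 69.8% of those on the vitamin E diet. Both contrasts used the same filter and the same variance estimate from all 44 arrays, so that shared calls are not fully independent.

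Ddit4 rose by 2.75 with vitamin E (adjusted p = 6.06e-10) and 2.65 without it. The same 2 values were 1.63 and 1.57 for Igfbp1, 1.01 and 0.97 for Slc25a25 and 0.77 and 0.69 for Got1, which rose on both diets, and −1.16 and −1.07 for Osgin1, which fell on both. Unadjusted interaction p-values of these 5 genes were 0.669 (Got1) to 0.884 (Igfbp1). Egr1 was at 1.52 (adjusted p = 2.61e-04) against 1.06. The median change of the 111 was 0.42 on the vitamin E diet against 0.69, and 97 of them changed less. Since they were picked for their change on the control diet, this is no test of a difference between the diets.

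The interaction of exercise and diet, which is such a test, was called in 0 of 18522 probe sets (smallest adjusted p = 0.771). At an unadjusted p under 0.05 it held 1016 (5.49%), of which 29 were among the 111 and 9 among the 15, which the same selection enriches. The genes with the smallest interaction p were Bid (−0.22 on the control and 0.41 on the vitamin E diet), Dus4l (0.22 and −0.50), Srrm4 (0.58 and −0.12), Mill2 (0.25 and −0.55) and Zfp703 (0.29 and −0.39). Of these, Srrm4 was called on the control diet. Gadd45g was at 2.26 and 1.08 (unadjusted interaction p = 0.00704) and Csrnp1 at 1.00 and −0.032 (unadjusted interaction p = 0.00113), and neither difference passed adjustment. Even the Csrnp1 difference of 1.03 (standard error 0.29) was not called, so that the 0 calls do not show equal responses on both diets.

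**Figure D5:**
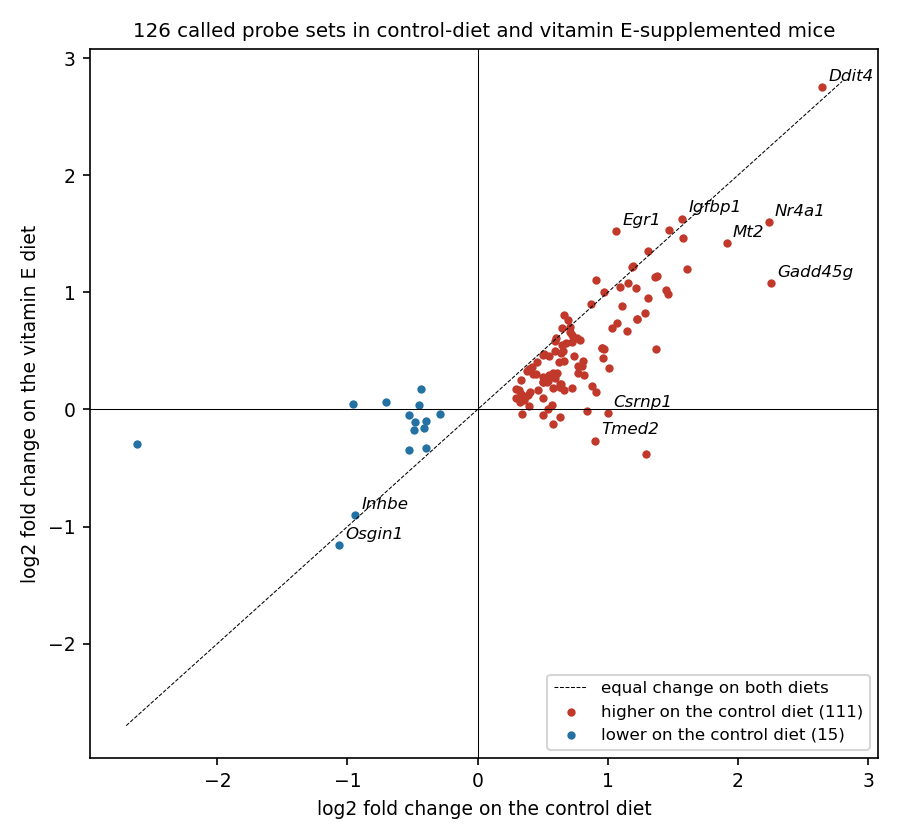
For the 126 probe sets called on the control diet, the log2 fold change after the run on the control diet (x axis) is plotted against that in vitamin E-supplemented mice (y axis), with higher ones in red, lower ones in blue and a dashed line of equal change. Of the 111 red points 103 lie above 0 on the y axis, and 97 lie below the dashed line.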

How the data were processed

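Liver RNA was labelled with biotin and hybridised to Affymetrix Mouse Gene 2.1 ST arrays, 1 per mouse. The authors normalized the arrays together by RMA with the Affymetrix software Expression Console and deposited log2 expression. The genome build of the probes is not given in the sources used here. Array medians of the control-diet mice were 1.53 to 1.669, and the number of mice limits precision.

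All 41345 probe sets of 44 arrays were read, of which 18522 had a group mean over 4 on the linear scale in 1 or more of the 4 groups. These were fitted in limma 3.58.1 (R 4.3.3), each group having its own coefficient, and p-values were adjusted by Benjamini-Hochberg. The spread test used absolute deviations from group medians in 22 arrays. Functions were tested on simulated data. Symbols came from the platform annotation, and lists used each gene's probe set with the highest mean.

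Named were the 30 largest rises and all falls with 1 symbol, the 20 smallest p-values, called list members or else up to 3 others, extremes of SD, spread and interaction, genes of the study, and other called genes by value. Members and lists were chosen with earlier results of these data known. Genes of a list named beyond this rule (such as Ier2 or Klf9) were chosen after their values were seen.

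Alternatives were other filters, scalings, moderation, weights, the number series, the replicate number, gene summaries, thresholds and mice left out. Lists without exercised control mice 3 and 6 were added after the data had been examined. The animals are separate, per the labels. Some genes are not reported here.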

Additional observations from a re-analysis of the deposited data

Results flagged for a closer look

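In 7 of 107 named probe sets examined, 1 of the 10 sedentary control mice lay far from the others, the gap to the nearest mouse, as a ratio to the group's range, exceeding Dixon's critical value. Chance gives about 1 in 20 such groups. Mouse 10 was high for Zfp281 (6.32, nearest 5.82, ratio 0.585) and Nr4a1 (3.91, nearest 2.83, ratio 0.488). Mouse 3 was high for Cebpd (2.92, nearest 2.37, ratio 0.579) and low for Fosl2 (2.71, nearest 3.15, ratio 0.529). Mouse 7 was low for Ppargc1a (4.55, nearest 5.37, ratio 0.593) and Angptl4 (6.84, nearest 7.40, ratio 0.539). Mouse 4 was high for Saa3 (7.67, nearest 6.82, ratio 0.473). The exercised group of 12 mice was not examined in this way.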

How the results depend on the processing

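Against 111 higher and 15 lower probe sets, only the 22 control-diet arrays gave 61 and 4, no filter on low values 72 and 6, the number series 24 alone 9 and 1, series 27 alone 14 and 2, a test against a log2 change of 0.26 (limma treat) 17 and 0, and the methods' threshold (unadjusted p under 0.05, median fold above 1.2) 733 and 397. Centring arrays on their median gave 113 and 9. With 1 mouse left out in turn, 81 to 115 were higher and 8 to 17 lower. The labels do not say whether the replicate numbers pair the mice. Same-number correlations of deviations were −0.065 to 0.084, with 0 of 10 pairs over 0.1. Of the 10 sedentary mice, 3 correlated best with their own number, and these values cannot exclude a pairing. With the replicate number as a block, 15 were higher and 0 lower. The other settings (a stricter filter, quantile normalization, trend and robust moderation, array weights, series as a block, 1-symbol probe sets, gene means, mice 3 and 6 left out) stayed within 1.5 times of both counts. Of 99 named called probe sets, 4 (Ddit4, Dusp1, Trp53inp1, Zfp36) passed under every setting in which they were tested, and 0 changed direction. The 0 calls for diet interaction and spread stayed 0 under the filters, scalings and without mice 3 and 6. The causes were not tested, and the smaller fits also held fewer arrays.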
